A study of Mus musculus with 20 samples.

Results

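The 10 mammary glands described here came from mice that stayed free of mammary tumors, 7 after a tamoxifen implant and 3 after a placebo implant, out of 20 glands profiled. They were chosen by 2 label fields, the treatment and the later outcome, though the comparison was chosen with earlier results of these data known. All animals were female FVB/N mice, heterozygous for the NRL-TGFα transgene TgN(Nrl-tgfa)29EPS (the line is numbered 1372-1), so the placebo animals carried it too. In this transgene the neu-related lipocalin promoter drives TGFα, a ligand of the EGF receptor, in mammary epithelium. At 8.5 weeks each mouse received an implant under the skin that released 5 mg of tamoxifen, or the carrier without drug. Over a 1-year period, mice were assigned to the cohorts in turn. One number 4 gland without a tumor was taken under anesthesia at 20.5 to 21 weeks, 4 weeks after the treatment had ended, and the mice were then watched up to an age of 2 years. The other 10 glands came from 7 placebo and 3 tamoxifen animals that did form a tumor, and are used here only where a difference between outcomes is tested. Each array holds 1 animal, and the animals are named by the number that the labels give them within a treatment: placebo 3, 5 and 6, and tamoxifen 3 to 9. Since outcome was recorded after the treatment, these 10 animals are not a random draw from the 2 treatments.

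Tamoxifen binds estrogen receptors and, depending on the tissue, blocks or imitates estrogen. In the mammary gland, estrogen acts through the receptor encoded by Esr1 in hormone-sensing luminal cells, where the progesterone receptor gene Pgr is a textbook target. Those cells signal to luminal progenitors and to basal cells, and the epithelium lies in a fat pad with fibroblasts, vessels, immune cells and nearby muscle. The comparison asks which transcripts still differed weeks after a short exposure, among animals with the same outcome.

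Values are the deposited log2 RMA expression values, in which a difference of 1 is a doubling. A gene was read from a single probe set, the one with the highest mean over the 20 arrays, and 12499 of 18194 genes were bright enough to test. Differences are tamoxifen minus placebo on the log2 scale with their standard error (SE), from limma's moderated test on the 10 arrays. A gene is said to have risen or fallen where its Benjamini-Hochberg adjusted p over all 12499 genes was under 0.05. With 3 placebo animals, the placebo spread is the weakest estimate here.

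The 10 arrays were alike in overall level, with medians between 6.815 and 6.8734, and pairs of them correlated at 0.9888 to 0.9971 over probe sets. Mammary markers were present in all 10 glands: the fat hormone gene Adipoq lay between 13.96 and 14.21, the epithelial adhesion gene Epcam between 9.58 and 10.67, the luminal keratin Krt18 between 9.44 and 11.12 and the basal keratin Krt14 between 7.27 and 8.76. Tgfa did not separate the treatments. It read 8.17, 7.64 and 7.82 in the placebo animals and 7.67 to 8.00 (median 7.91) in the tamoxifen animals, a difference of 0.00 ± 0.11 (SE). The labels do not say whether the transgene's transcript is read by this probe set. On the first principal component of the 10 arrays, with 33.2% of the variance, the placebo animals (-9.61 to 6.17) lay inside the range of the tamoxifen animals (-22.3 to 18). On the second, with 22.3% of the variance, the placebo animals lay at -16.6, -15.2 and -7.12 and the tamoxifen animals between -2.55 and 15. In bulk tissue, fewer cells of a type and less RNA per cell cannot be told apart.

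Tamoxifen glands had higher transcript levels of 8 genes and a lower level of 1. Akr1cl, Prtn3, Spon1, Wfdc21, Lrg1, Pgr, Clca3a1 and Ptpn5 rose, and Fbln1 fell. The genes that rose were 0.064% of those tested, the gene that fell 0.008%, and both together 0.072%. At an unadjusted p under 0.05, 354 genes (2.83%) were higher and 418 (3.34%) lower, 6.18% in all. All 7 tamoxifen values lay above all 3 placebo values for 163 genes (1.3%) and below them for 133 genes (1.06%). The median difference over all genes tested was 0.01, and 49 genes differed by at least 1 in either direction.

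**Figure D1:**
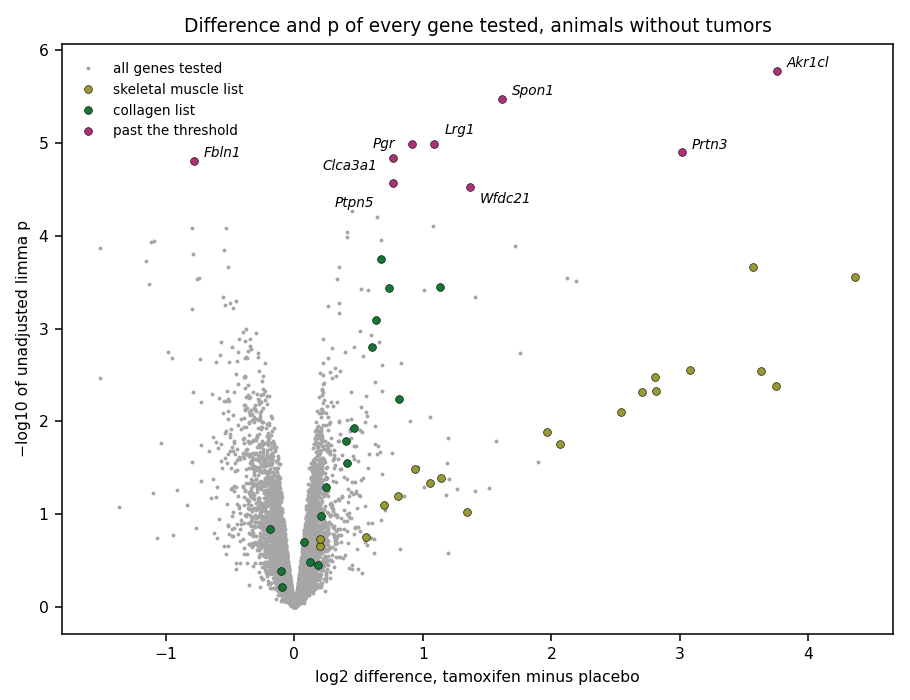
Each point is 1 of the 12499 genes tested, with its log2 difference (tamoxifen minus placebo, animals without tumors) on the x axis and −log10 of its unadjusted limma p on the y axis. The 9 genes past the threshold are named, and the skeletal muscle genes (olive) reach differences as large as 4.37 (Tnnc2) without passing it.

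The largest difference that passed belonged to Akr1cl, an aldo-keto reductase related to enzymes that interconvert steroids. Akr1cl read 7.93, 7.73 and 8.17 in placebo animals 3, 5 and 6, and 10.06 at the lowest, 11.76 at the median and 12.57 at the highest in the tamoxifen animals. No tamoxifen animal came near the placebo range, and animal 3 was the lowest of the 7. The difference was 3.76 ± 0.41 (SE), 13.5-fold (adjusted p = 0.0206). Its relatives gave no call: of 10 tested genes in a list of Akr1c reductases and hydroxysteroid dehydrogenases, 5 had a positive and 5 a negative difference, Akr1cl alone passed, and the list's median was 0.00. Akr1c18, which inactivates progesterone, differed by -0.31 ± 0.12 (SE). A second, dim Akr1cl probe set differed by 1.37.

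Prtn3, the neutrophil granule protease proteinase 3, rose by 3.02 ± 0.41 (SE), 8.09-fold (adjusted p = 0.0276). Its placebo values were 7.47, 7.07 and 7.75. Its tamoxifen values ran from 8.76 through a median of 10.66 to 10.96, again with animal 3 lowest and no overlap. No other granule gene passed. Of 11 tested genes of the neutrophil list only Prtn3 did, and the list's median was 0.14, with 9 members positive and 2 negative. The granule gene Ngp differed by 0.27 ± 0.10 (SE, adjusted p = 0.668). The calgranulin gene S100a8 differed by 0.67 ± 0.39 (SE, adjusted p = 0.927) and the lactoferrin gene Ltf by 0.60 ± 0.36 (SE, adjusted p = 0.930). The 2 negative members were the neutrophil protease genes Elane, at -0.01, and Mmp9, at -0.03.

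Spon1, which encodes the matrix protein F-spondin, read 8.84, 8.31 and 9.08 with placebo and 10.01 to 10.81 (median 10.35) with tamoxifen. The groups lay well apart, and the difference was 1.62 ± 0.19 (SE), 3.07-fold (adjusted p = 0.0209). Other Spon1 probe sets bright enough to test differed by 0.72 (adjusted p = 0.115) and 0.99 (adjusted p = 0.127). Neither passed in a limma fit of every probe set with a single symbol. A dim one differed by 0.25.

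Further secreted or surface proteins were among the genes that rose. Wfdc21, a small whey-acidic-protein-domain protein, read 7.18, 7.36 and 7.34 with placebo and 8.19 to 9.31 (median 8.64) with tamoxifen, a rise of 1.37 ± 0.20 (SE, adjusted p = 0.0416). Lrg1, a secreted leucine-rich glycoprotein known from the acute-phase response, read 11.13, 11.03 and 11.64 against 12.11 to 12.58 (median 12.41), a rise of 1.09 ± 0.14 (SE, adjusted p = 0.0276). Clca3a1, of the calcium-activated chloride channel regulator family, read 7.61, 7.72 and 7.72 against 8.22 to 8.77 (median 8.41), a rise of 0.77 ± 0.10 (SE, adjusted p = 0.0276). In all of them the lowest tamoxifen animal exceeded the highest placebo animal. Clca3a1 has close copies, and the probe set of Clca3a2 differed by 1.72 ± 0.30 (SE, adjusted p = 0.0796), so the array may not keep the copies apart.

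Pgr, the progesterone receptor, was the steroid receptor that rose. Its placebo values of 8.17, 7.82 and 8.07 lay below tamoxifen values of 8.68 to 9.23 (median 9.03), and the difference was 0.91 ± 0.12 (SE), 1.89-fold (adjusted p = 0.0276). The other Pgr probe sets were too dim to test and differed by 0.27 and 0.03. Ptpn5, a tyrosine phosphatase best known from brain, rose by 0.76 ± 0.11 (SE, adjusted p = 0.0416) from 5.90, 5.71 and 5.97 to a range of 6.39 to 6.89. Its mean lay below the brightness used for the filter. It passed through placebo animals 1 (7.245) and 10 (6.97), both with later tumors, and tamoxifen animal 3 (6.891).

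Fbln1 was the gene that fell. It encodes fibulin-1, a protein of elastic fibers and basement membranes. Placebo values were 9.41, 9.46 and 9.50, tamoxifen values 8.42 to 8.92 (median 8.66), and the difference was -0.78 ± 0.11 (SE), 1.72-fold lower (adjusted p = 0.0276). The placebo animals were nearly equal. Both further Fbln1 probe sets were bright enough to test. In a limma fit of every probe set with a single symbol, 1 differed by -0.53 (adjusted p = 0.033) and the other by 0.01 (adjusted p = 0.992). The fall was thus not seen in every Fbln1 probe set.

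**Figure D2:**
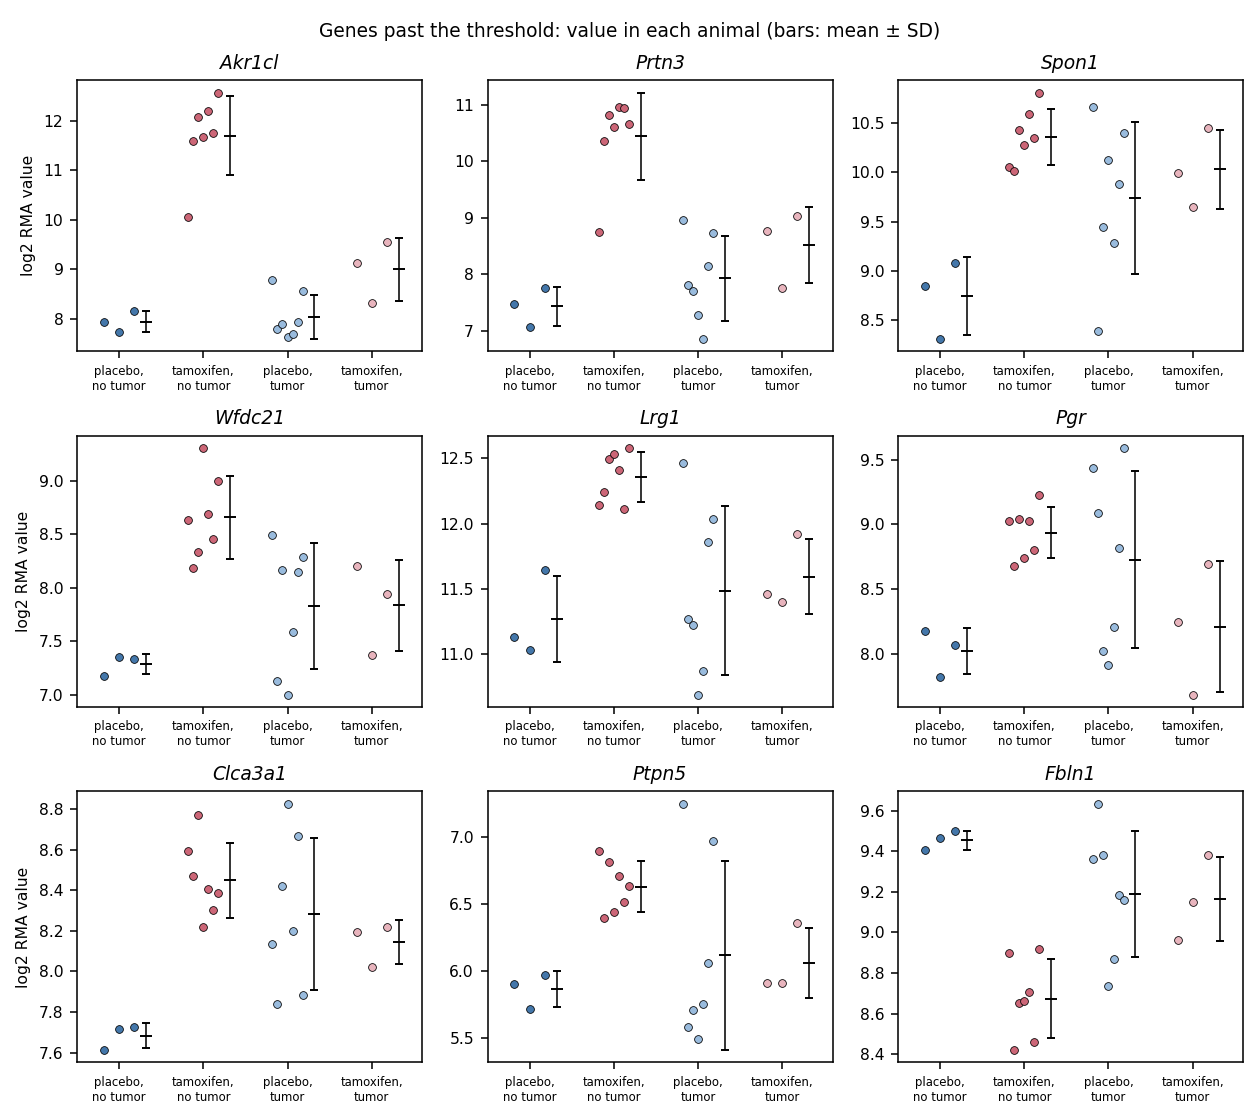
Log2 RMA value (y axis) of the 9 genes past the threshold in every animal of the 4 groups on the x axis, with mean ± SD beside each group (n = 3, 7, 7 and 3 from left to right). Among animals without tumors the groups do not overlap for any of the 9, while the animals with tumors overlap between treatments in every panel.

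The stretches just upstream of the start sites, but nothing farther away, are shown for the genes with the largest differences and for Pgr. Each is the 250 bases before the RefSeq transcription start (GRCm38.p6), 5′ to 3′ on the gene's strand: Akr1cl at chr1:65032760-65033009 (minus strand), Prtn3 at chr10:79879417-79879666 (plus) and Pgr at chr9:8899583-8899832 (plus). Capitals mark CCAAT and TATAAA on either strand.
Akr1cl: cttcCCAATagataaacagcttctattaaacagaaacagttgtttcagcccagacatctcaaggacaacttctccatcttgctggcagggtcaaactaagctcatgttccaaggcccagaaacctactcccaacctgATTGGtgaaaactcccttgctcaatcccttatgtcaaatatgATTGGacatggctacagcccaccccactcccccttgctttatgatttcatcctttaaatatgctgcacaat
Prtn3: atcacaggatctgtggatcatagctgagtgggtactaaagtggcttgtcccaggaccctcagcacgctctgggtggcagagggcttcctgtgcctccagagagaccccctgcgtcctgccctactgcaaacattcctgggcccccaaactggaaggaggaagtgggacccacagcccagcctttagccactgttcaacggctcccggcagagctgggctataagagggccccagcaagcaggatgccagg
Pgr: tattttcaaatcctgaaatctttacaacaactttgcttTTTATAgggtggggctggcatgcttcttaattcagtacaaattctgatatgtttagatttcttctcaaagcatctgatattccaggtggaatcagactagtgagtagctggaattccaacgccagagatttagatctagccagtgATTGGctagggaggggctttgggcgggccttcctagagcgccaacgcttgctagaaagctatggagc

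RefSeq held 9 such windows for 7 of the 9 genes, with none for Spon1 and Wfdc21. No window held the estrogen response element (GGTCA and its inverted copy, 3 free bases apart), which 0.0639% of 32851 promoter windows of this length hold, the progesterone and glucocorticoid receptor element (GNACA and its inverted copy, 3 free bases apart; 0.387%) or the STAT element TTCNNNGAA (7.02%). CCAAT, present in 33.8% of windows, occurred 3 times in Akr1cl and 1 time each in Pgr, Lrg1 and Clca3a1. TATAAA, present in 12.4%, occurred 1 time, in Pgr, near the far end of the window. All motifs were searched on both strands, and a match is a description of letters only. Both receptor elements are so rare among all windows that finding none in 9 says nothing about a shared element.

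Which genes passed rested on single animals. In limma fits on 9 arrays, no gene passed without placebo animal 3 (smallest adjusted p = 0.147, 471 genes at an unadjusted p under 0.05) or without tamoxifen animal 7 (0.0627, 732 genes). One gene passed without placebo animal 5, and it was Cxcl15, none of the 9. The count was 5 without placebo animal 6, 2 without tamoxifen animal 5 and 4 without tamoxifen animal 9. It was 15 without tamoxifen animal 3 and 14 without tamoxifen animal 8. Akr1cl passed in 7 of the 10 such fits, Spon1 in 6, Lrg1 and Pgr in 5 each, Prtn3, Clca3a1, Ptpn5 and Fbln1 in 4 each and Wfdc21 in 3. In these 10 fits Akr1cl stayed between 3.62 and 4.03, Prtn3 between 2.84 and 3.30, Spon1 between 1.40 and 1.79, Pgr between 0.82 and 0.99, and Fbln1 between -0.82 and -0.74. Taking the mean of all probe sets of a gene moved the sizes more, to 2.56 for Akr1cl, 0.89 for Spon1 (adjusted p = 0.0580), 0.41 for Pgr (adjusted p = 0.0766), 0.37 for Ptpn5 and -0.43 for Fbln1. Wfdc21 (adjusted p = 0.0502), Spon1 and Pgr did not pass with that rule, and the other 6 did. None of the 9 genes changed sign in any alternative that was run.

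**Figure D3:**
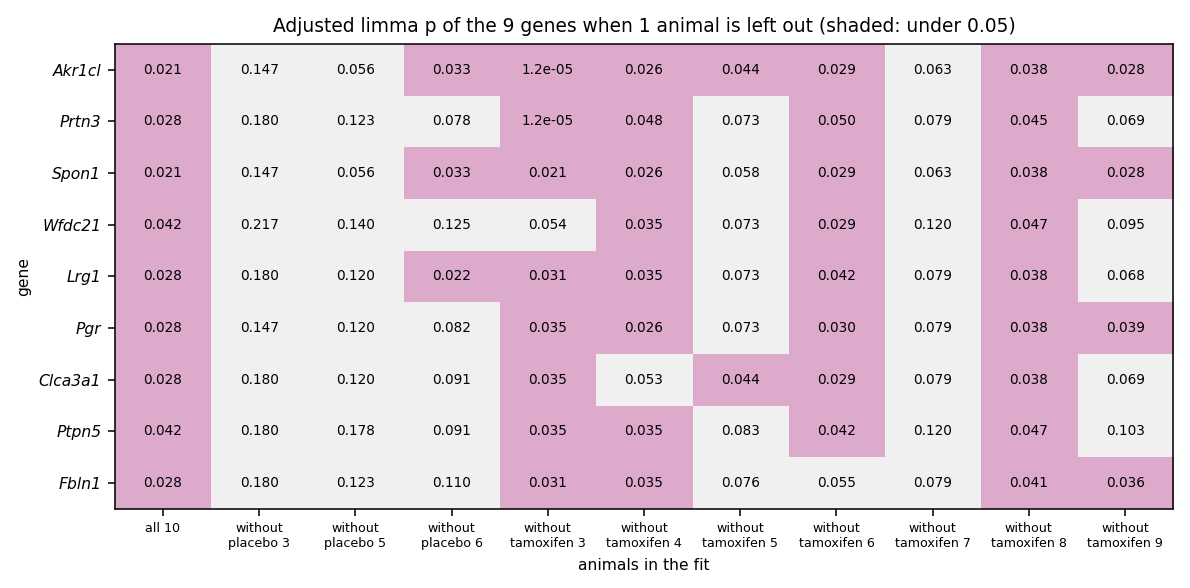
Adjusted limma p of the 9 genes (y axis) with all 10 animals and with 1 animal left out at a time (x axis), shaded where it is under 0.05. The columns without placebo 3, without placebo 5 and without tamoxifen 7 hold no shaded cell, and the smallest value is 1.22e-05 for Akr1cl and Prtn3 without tamoxifen 3.

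The next genes in each direction did not pass, so their values are given without a call. On the higher side, Gas6, a ligand of the Axl and Mertk receptors, read 10.62, 10.11 and 10.57 with placebo and 11.12 to 11.87 with tamoxifen, a difference of 1.08 ± 0.18 (SE, adjusted p = 0.0738). Asic2, an acid-sensing channel, Pifo, which acts at the primary cilium, Ccdc162, Muc13, a mucin, and Gng12, a G protein subunit, differed by 0.41 to 0.68 with adjusted p between 0.0675 and 0.0755. All of these separated the groups without overlap. Pifo, though, exceeded the filter value of 6.8523 only in tamoxifen animals without tumors, with 6.696 as its highest value elsewhere. Outside that group Muc13 exceeded it only in tamoxifen animals 1 (6.915) and 10 (6.896), both with later tumors, and the filter needs 3 arrays. Both genes were thus tested only through the group where they were high, so their separation was partly built in.

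On the lower side, the smallest p-values belonged to Fcna, which encodes the lectin ficolin A, and the oxidase gene Aox3, with differences of -0.80 ± 0.13 and -0.54 ± 0.09 (SE, adjusted p = 0.0738 for both). Slc12a2, the sodium-potassium-chloride cotransporter, read 11.27, 10.70 and 10.90 against 9.50 to 10.34 (-1.10 ± 0.19, SE, adjusted p = 0.0755). Inmt, a methyltransferase, read 11.16, 11.24 and 11.81 against 9.88 to 10.79 (-1.11 ± 0.19, SE, adjusted p = 0.0755). The chemokine gene Cxcl15 read 8.57, 7.48 and 8.79 against 6.26 to 7.33 (-1.51 ± 0.27, SE, adjusted p = 0.0806). These ranges did not overlap either, though for Cxcl15 placebo animal 5 lay just above the highest tamoxifen animal. Kank3, Tmeff2, Sfrp2, Bmp6, Postn, Igfbp3, Acaa1b, Crispld1 and Dpep1 completed the 15 by p, with differences from -1.16 to -0.46 and adjusted p from 0.0806 to 0.145.

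Gene lists are described by the count of members and by their median, beside the background of 52.8% of all genes above 0 and a median of 0.01. The 48 lists named 847 genes, of which 777 had a probe set and 675 were tested.

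Fibrillar collagens and their partners were mostly higher with tamoxifen. Of 17 collagen genes, all tested, 14 had a positive difference and none passed. At an unadjusted p under 0.05, 9 were higher, against 2.83% of all genes. The list's median was 0.40, and 6 of 17 did not overlap between groups, against a background of 1.3%. Col1a1, a chain of type I collagen, read 11.56, 10.70 and 10.85 with placebo and 11.66 to 12.56 (median 12.27) with tamoxifen, a difference of 1.13 ± 0.22 (SE, adjusted p = 0.120). Placebo animal 3 lay just below the lowest tamoxifen animal, number 8. Col3a1 of type III collagen differed by 0.68 ± 0.12 (SE, adjusted p = 0.0914), Col6a3 of type VI by 0.73 ± 0.15 (SE, adjusted p = 0.120) and Col1a2 by 0.63 ± 0.14 (SE, adjusted p = 0.198). Col18a1 was the most negative, at -0.19. The list's median stayed between 0.28 and 0.47 in all 23 alternatives. The mean of the list was lowest in placebo animals 5 and 6 and highest in tamoxifen animals 9 and 6, and placebo 3 lay above tamoxifen 8.

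The rest of the matrix did not follow the collagens. Of 22 matricellular and elastic matrix genes 10 were positive and 12 negative, with a median of -0.05, and the list held both Spon1, which rose, and Fbln1, which fell. Periostin (Postn), a matricellular protein of stroma, read 12.63, 11.83 and 12.23 with placebo and 11.21 to 11.63 with tamoxifen (-0.74 ± 0.14, SE, adjusted p = 0.110). Fbln5, another fibulin, differed by -0.35 ± 0.11 (SE, adjusted p = 0.543). Of 11 fibroblast markers, 3 were apart between groups, against 1.3% of all genes, and the median over all 11 was -0.07. The 3 were Col1a1, Col1a2 and Col3a1, already counted among the collagens. Pi16, a marker of adventitial fibroblasts, differed by -0.57 ± 0.21 (SE, adjusted p = 0.668). Matrix proteases and their inhibitors had a median of -0.03 with none of 17 passing. Mmp12, the macrophage metalloelastase, was at 10.75 in tamoxifen animal 4 and had a tamoxifen median of 5.72.

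Skeletal muscle genes had the largest differences of any list, and none passed. All 20 tested contraction genes were higher with tamoxifen, with a median of 2.02, and 14 of the 20 did not overlap between groups, against a background of 1.3%. Acta1, skeletal actin, read 7.39, 8.59 and 8.64 with placebo and 10.04 to 13.62 (median 11.39) with tamoxifen (3.57 ± 0.66, SE, adjusted p = 0.0970). Tnnc2, a fast troponin, read 5.41, 6.67 and 5.41 against 8.28 to 12.74 (4.37 ± 0.84, SE, adjusted p = 0.110), and Ckm, muscle creatine kinase, 6.80 to 7.57 against 8.20 to 12.76 (2.81 ± 0.80, SE, adjusted p = 0.475). Tamoxifen animals spread over several log2 units, from animal 4 to animal 7. The mean of the list, each gene centred over the 10 animals, was -1.53, -1.17 and -1.53 in the placebo animals. In the tamoxifen animals it was -0.53 in animal 4, -0.37 in animal 5, -0.03 in animal 6, 0.24 in animal 8, 0.94 in animal 3, 1.48 in animal 9 and 2.49 in animal 7.

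The part of the muscle transcripts in the other results was not tested beyond leaving animals out. Without tamoxifen animals 7 and 9, which were highest for muscle, no gene passed (smallest adjusted p = 0.0631, 762 genes at an unadjusted p under 0.05). With these animals left out, all tamoxifen values lay above all placebo values for 2.16% of all genes. The collagen list's median was then 0.29 with 6 of 17 genes apart, and the muscle median was 1.36 with 14 of 20 apart. Tamoxifen animal 7 was the highest of its group for Prtn3 and animal 9 for Akr1cl, while animal 3, the highest for muscle after them, was the lowest for both genes and animal 4, the lowest for muscle, the next lowest. The muscle forms of enolase and phosphoglycerate mutase, Eno3 (1.18 ± 0.47, SE) and Pgam2 (1.18 ± 0.57, SE), and the muscle cytochrome oxidase subunit Cox6a2 (0.44 ± 0.15, SE) were the members of the glycolysis and respiratory chain lists that did not overlap. The medians of these lists were 0.05 over 21 genes and -0.02 over 30. With all 10 animals, 2 of 21 and 1 of 30 stood apart, against 1.3% of all genes.

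**Figure D4:**
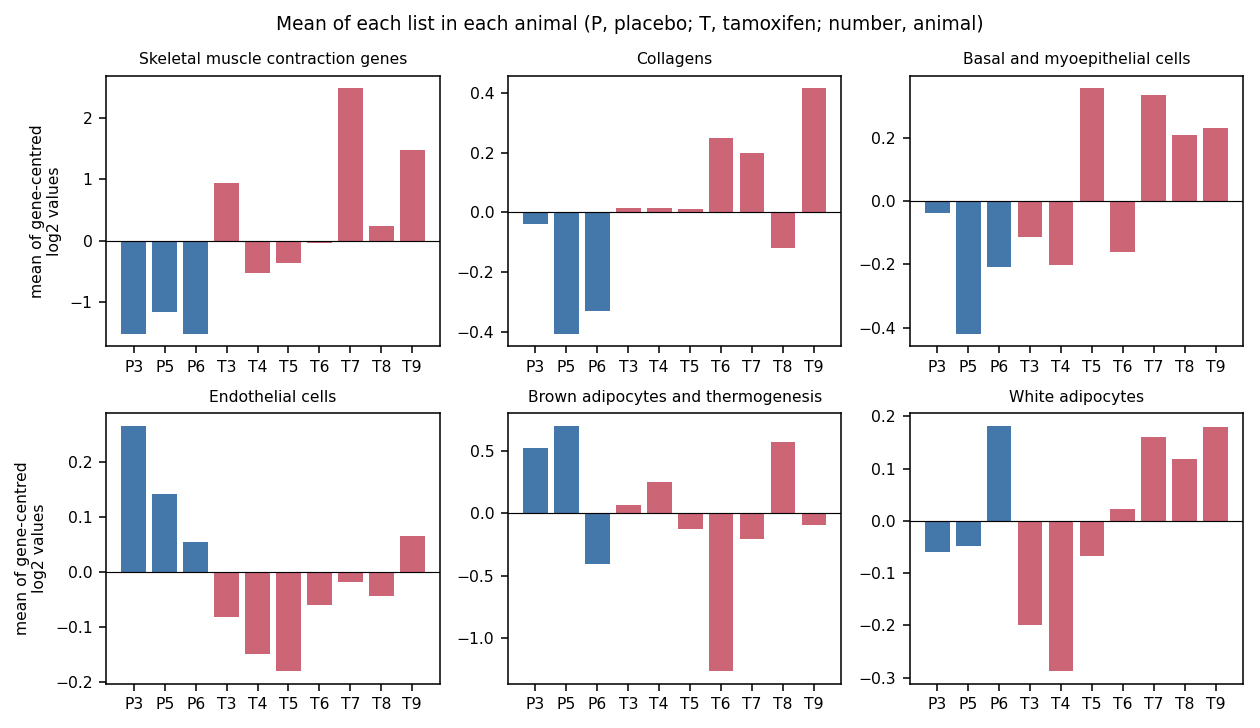
Mean of the gene-centred log2 values of 6 lists (y axis) in each of the 10 animals without tumors (x axis; blue, placebo; red, tamoxifen). The muscle list is below -1 in all placebo animals and reaches 2.49 in tamoxifen animal 7, the endothelial list is highest in the placebo animals 3 and 5, and the white fat list crosses between treatments.

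Among hormone receptors and their targets, only Pgr passed. The 16 tested genes of the estrogen and progesterone list divided into 8 positive and 8 negative, with a median of 0.01 that turned negative (-0.00) when each array was centred. Esr1, the estrogen receptor itself, read 9.99, 10.10 and 9.85 with placebo and 9.16 to 10.04 (median 9.81) with tamoxifen (-0.27 ± 0.16, SE, adjusted p = 0.934). Ccnd1, cyclin D1, differed by 0.27 ± 0.10 (SE, adjusted p = 0.690) and Myb by 0.48 ± 0.17 (SE, adjusted p = 0.674). In the list of hormone-sensing luminal cells the median was 0.20 over 10 genes, 5 positive and 5 negative. It was -0.03 without placebo animal 5, so its sign rested on that animal.

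No luminal progenitor marker passed. Of 13 tested, 7 were positive and 6 negative, with a median of 0.07 that was negative without placebo animal 5, and none passed or stood apart between groups. Kit, the stem cell factor receptor, read 8.97, 8.57 and 8.32 with placebo and 8.58 to 9.04 (median 8.74) with tamoxifen (0.17 ± 0.14, SE, adjusted p = 0.954). Elf5, the transcription factor of alveolar progenitors, read 9.30, 7.95 and 8.76 against 7.51 to 8.74 (-0.52 ± 0.31, SE, adjusted p = 0.935). Luminal keratins overlapped too, with Krt8 at 0.39 ± 0.34 (SE, adjusted p = 0.954) and Krt18 at 0.12 ± 0.31 (SE, adjusted p = 0.996).

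Milk genes were on the lower side. Of 17 tested alveolar genes 14 were negative, with a median of -0.19 that stayed between -0.31 and -0.08 in all alternatives, and none passed. Lalba, alpha-lactalbumin, read 7.40, 7.18 and 7.13 with placebo and 6.83 to 7.09 with tamoxifen (-0.28 ± 0.08, SE, adjusted p = 0.496), and Xdh, a protein of milk fat secretion, differed by -0.31 ± 0.12 (SE, adjusted p = 0.693). These 2 of 17 did not overlap, against 1.06% of all genes. The beta-casein gene Csn2 spread from 5.53 to 9.45 among the placebo animals alone, which is wider than its difference of -1.37 ± 0.72 (SE, adjusted p = 0.893). Csn1s1 differed by -0.13 ± 0.36 and Csn3 by -0.44 ± 0.29 (SE). By list mean, placebo animals 3 (0.59) and 6 (0.14) lay above the tamoxifen range of -0.34 to 0.05. Placebo animal 5, at -0.18, lay inside it.

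Some basal genes, but not the contractile ones, leaned higher in some tamoxifen animals. Oxtr, the oxytocin receptor of myoepithelium, read 8.88, 8.08 and 8.19 with placebo and 8.86 to 11.24 (median 10.02) with tamoxifen, with 6 of 7 tamoxifen animals above all placebo animals (1.75 ± 0.43, SE, adjusted p = 0.309). Krt14 differed by 0.64 ± 0.24 (SE, adjusted p = 0.690), Trp63, the basal transcription factor p63, by 0.76 ± 0.29 (SE, adjusted p = 0.690) and Krt5 by 0.33 ± 0.19 (SE, adjusted p = 0.922). The contractile genes lay near 0: Acta2 differed by 0.09, Cnn1 and Tagln by 0.08, Mylk by 0.01 and Myh11 by -0.07. Jag2 differed by -0.04 and Lgr5 by -0.15. Over the 11 tested members 8 were positive and the median was 0.08, which was -0.05 without placebo animal 5. Cell division genes were positive in 16 of 20 cases with a median of 0.12, none at an unadjusted p under 0.05. Mki67 read 7.76, 7.29 and 6.92 with placebo and 7.01 to 8.11 with tamoxifen (0.17 ± 0.24, SE, adjusted p = 0.995).

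No member of the growth factor lists passed. In the EGF receptor family 7 of 9 tested genes were negative with a median of -0.06, and Egfr itself differed by -0.06 ± 0.07 (SE, adjusted p = 0.980). In the IGF axis 10 of 15 were negative with a median of -0.07. Of the 15, 4 were lower at an unadjusted p under 0.05, against 3.34% of all genes. Igfbp3, a binding protein that holds IGF away from its receptor, read 9.65, 9.95 and 10.08 with placebo and 8.80 to 9.44 with tamoxifen (-0.76 ± 0.15, SE, adjusted p = 0.110). Gpc3, a proteoglycan, differed by -0.61 ± 0.15 (SE, adjusted p = 0.331), and both stood apart between groups, 2 of 15 against 1.06% of all genes.

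Of 19 tested Wnt pathway genes, the secreted inhibitor gene Sfrp2 and the ligand genes Wnt2 and Wnt11 had all tamoxifen values below all placebo values, 3 of 19 against 1.06% of all genes. Sfrp2 read 9.37, 8.34 and 8.84 against 7.37 to 8.12 (-1.16 ± 0.21, SE, adjusted p = 0.0927), Wnt2 differed by -0.57 ± 0.13 (SE, adjusted p = 0.281) and Wnt11 by -0.26 ± 0.08 (SE, adjusted p = 0.496). The list's median was -0.02, near that of all genes. Among 22 TGF-β and BMP genes, the ligand gene Bmp6 read 8.57, 8.60 and 8.52 with placebo and 7.74 to 8.20 with tamoxifen (-0.52 ± 0.10, SE, adjusted p = 0.0970). Notch genes were negative in 10 of 13 cases with a median of -0.06, and prolactin, Jak2 and Stat5 genes had a median of 0.07 over 10, none of either passing.

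Endothelial genes were lower as a list. Of 16 tested, 15 were negative, 8 of them at an unadjusted p under 0.05 (against 3.34% of all genes), with a median of -0.23 that stayed between -0.35 and -0.16 in all alternatives, and none passed. Sox17, an arterial transcription factor, read 8.68, 8.52 and 8.77 with placebo and 7.73 to 8.36 with tamoxifen (-0.51 ± 0.13, SE, adjusted p = 0.331). Robo4, a receptor of vessels, differed by -0.38 ± 0.09 (SE, adjusted p = 0.281), and the VEGF receptor genes Kdr and Flt1 by -0.27 ± 0.08 and -0.30 ± 0.10 (SE, adjusted p = 0.496 and 0.649). Sox17 and Robo4 stood apart between groups, 2 of 16 against 1.06% of all genes, while Kdr and Flt1 overlapped. By list mean, placebo animal 6 at 0.06 and tamoxifen animal 9 at 0.07 overlapped.

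Fat genes differed little or unevenly. White adipocyte genes were negative in 13 of 15 cases with a median of -0.07, and Adipoq differed by -0.08 ± 0.06 (SE, adjusted p = 0.944). All 14 brown fat genes were negative with a median of -0.27, but none reached an unadjusted p of 0.05. Ppargc1a, the coactivator of mitochondrial genes, read 10.67, 10.56 and 8.21 with placebo and 7.79 to 9.37 with tamoxifen (-1.10 ± 0.52, SE, adjusted p = 0.830). Ucp1, the uncoupling protein of brown fat, read 13.60, 13.64 and 13.10 against 11.57 to 13.68 (-0.37 ± 0.37, SE, adjusted p = 0.974). Placebo animal 6 was below placebo 3 and 5 for both, and tamoxifen animal 6 was lowest of all. Fatty acid oxidation genes were negative in 15 of 16 cases with a median of -0.16, none at an unadjusted p under 0.05.

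Drug metabolism genes were negative in 16 of 22 cases with a median of -0.10. Cyp2e1, a cytochrome P450 of small molecules, read 13.69, 13.77 and 13.68 with placebo and 12.66 to 13.57 with tamoxifen (-0.54 ± 0.16, SE, adjusted p = 0.496). Gclc, which starts glutathione synthesis, differed by -0.40 ± 0.09 (SE, adjusted p = 0.251) and Cyp1b1, which hydroxylates estrogen, by -0.42 ± 0.13 (SE, adjusted p = 0.575). Lipid synthesis genes had a median of 0.00 over 20. Arg2, a mitochondrial arginase, read 7.66, 7.04 and 8.05 with placebo and 6.17 to 7.13 with tamoxifen (-0.96 ± 0.24, SE, adjusted p = 0.316).

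**Figure D5:**
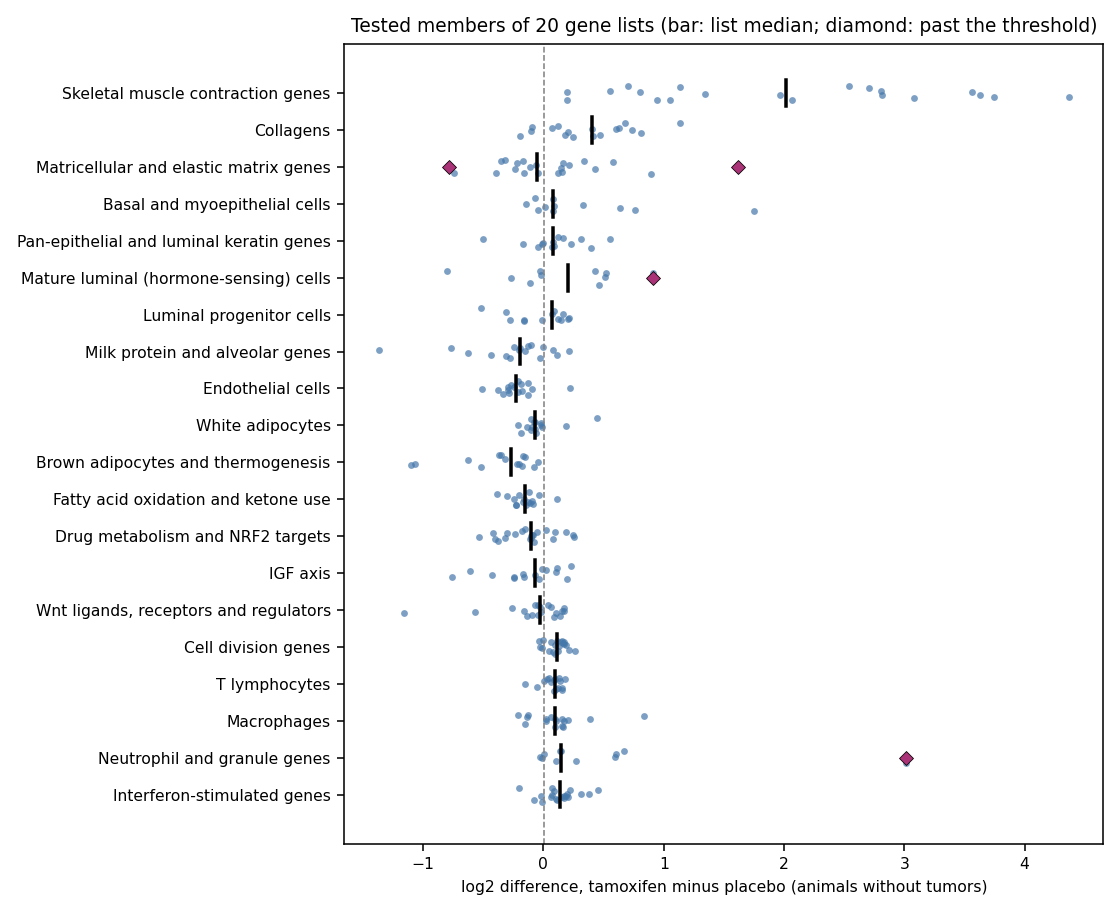
Log2 difference (x axis, tamoxifen minus placebo) of each tested member of 20 lists (y axis), with the list median as a black bar, genes past the threshold as diamonds, and the median of all genes as a dashed line. Muscle contraction genes lie from 0.20 to 4.37, collagens centre on 0.40 and endothelial genes on -0.23, and most other lists straddle the dashed line.

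Immune lists had medians close to that of all genes, and apart from Prtn3 no member passed. T cell genes were positive in 14 of 16 cases (median 0.09), B cell genes in 12 of 13 (median 0.09) and interferon-stimulated genes in 16 of 20 (median 0.14), with none at an unadjusted p under 0.05. The pan-leukocyte gene Ptprc read 12.09, 12.10 and 12.49 with placebo and 11.68 to 12.81 with tamoxifen (0.09 ± 0.23, SE), and Cd3e of the T cell receptor complex differed by 0.18 ± 0.12 (SE). Among 17 macrophage genes, Mgl2, a lectin of alternatively activated macrophages, read 8.12, 7.89 and 7.98 against 8.32 to 9.39 (0.83 ± 0.21, SE, adjusted p = 0.331). It alone stood apart, 1 of 17 against 1.3% of all genes. Ccl8, a monocyte chemokine, read 9.78, 8.38 and 9.40 against 8.51 to 11.64 (1.26 ± 0.58, SE, adjusted p = 0.818). Natural killer and mast cell lists had medians of -0.04 and -0.14, and complement and acute-phase genes one of 0.14, with Cp, ceruloplasmin, at -0.29 ± 0.08 (SE, adjusted p = 0.482).

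Lists of growth arrest, clock, immediate early and heat shock genes held no call. Gadd45a, a p53 target, differed by 0.63 ± 0.17 (SE, adjusted p = 0.434) and Perp, another, by 0.65 ± 0.24 (SE, adjusted p = 0.674), in a list with a median of 0.01 over 14. Immediate early genes were negative in 14 of 18 cases with a median of -0.05. The clock-linked repressor gene Nfil3 read 8.68, 8.62 and 6.91 within the placebo group alone.

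Whether the treatment difference itself depended on the later outcome was tested over all 20 arrays as an interaction, the difference without tumors minus the difference with tumors. No gene passed (0% of 12499), with 565 genes (4.52%) at an unadjusted p under 0.05. Akr1cl ranged from 7.63 to 8.78 in the 7 placebo animals with tumors and from 8.31 to 9.55 in the 3 tamoxifen animals with tumors, a difference of 0.96 there and an interaction of 2.80 ± 0.55 (SE, adjusted p = 0.260). The tamoxifen animals with tumors thus all lay below those without. Gng12 (0.85 ± 0.15, SE) and Pifo (0.69 ± 0.13, SE) had the same adjusted p of 0.260, Oxtr (2.40 ± 0.50, SE) 0.428 and Zfp469, a zinc finger gene, (0.52 ± 0.12, SE) 0.795. Pifo was bright enough to test only through the tamoxifen animals without tumors, so its interaction was partly built in.

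For the other 8 genes that passed among animals without tumors, the difference among animals with tumors was 0.59 for Prtn3, 0.29 for Spon1, 0.11 for Lrg1, 0.01 for Wfdc21, -0.02 for Fbln1, -0.06 for Ptpn5, -0.14 for Clca3a1 and -0.52 for Pgr. Their interactions had adjusted p of 0.938, so no difference between outcomes was shown. Pgr spread from 7.91 to 9.59 in placebo animals with tumors, a range that takes in all 7 tamoxifen animals without tumors. Without tamoxifen animal 3, 3 genes passed the interaction: Akr1cl (3.07, adjusted p = 0.00385), Zfp469 (0.58, adjusted p = 0.00983) and Oxtr (2.61, adjusted p = 0.0272).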

How the data were processed

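Total RNA from single frozen glands was labelled with biotin and hybridised to Affymetrix mouse arrays of 45101 probe sets, per the labels' protocols. The values the authors deposited are log2 values, and RMA is the tool that the submitters' processing notes name; the sources used here give neither its version nor its settings. Of the probe sets, 34958 carry 1 gene symbol, 932 several and 9211 none; symbols were updated through Entrez identifiers for 34754. Where a gene had several probe sets, the one of highest mean (20 arrays) stood for it, and it was tested where at least 3 arrays exceeded 6.8523, the median of all values. The number of arrays limits the precision.

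limma 3.58.1 in R 4.3.3 (lmFit, eBayes, Benjamini-Hochberg, threshold 0.05) compared the 7 with the 3 arrays, and a 4-group fit over 20 arrays gave the interaction. The animals, gene lists and comparison were chosen with earlier results of these data known. Named genes are the 15 largest differences past the threshold in each direction, filled up by smallest p where fewer passed; the 4 smallest p in each list and any member that passed; the 5 smallest interaction p; and a set of receptor, keratin, casein, fat, muscle and immune genes, of which 1 is not reported here. Col18a1, Epcam, Elane, Mmp9, Acta2, Cnn1, Tagln, Mylk, Myh11, Jag2 and Lgr5 were named after their values were seen. On simulated data with 12499 genes the main fit recovered 96% of genes changed by 1 and 100% of those changed by 2, with 6 false calls, and the interaction fit 84% and 98%, also with 6. The simulation drew the changed genes at random and gave both groups the same independent normal noise. It cannot say what share of real changes was recovered: in the data Tnnc2 differed by 4.37 without passing. Alternatives changed the centring, quantile scaling, filter, probe-set rule, variance moderation, array weights, arrays fitted and blocks, and left out each animal. Promoter windows are RefSeq's (GRCm38.p6); the arrays' own build was not used.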

Additional observations from a re-analysis of the deposited data

Results flagged for a closer look

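Of 48 genes examined over the 7 tamoxifen animals without tumors, 3 held an animal far from the others, where chance flags about 1 in 20. Akr1cl was 10.06 in animal 3, with the nearest animal at 11.6. Prtn3 was 8.755 in animal 3, with the nearest at 10.37. Ucp1 was 11.57 in animal 6, with the nearest at 13.05. Outside the genes reported, 1 of 2960 tested probe sets without a single gene symbol passed the threshold, 1.41 ± 0.21 (SE) higher with tamoxifen (adjusted p = 0.0467 over 23897 probe sets, limma); its probe set lists several symbols and is not named.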

How the results depend on the processing

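The sign of all 9 genes held in all 206 alternative fits over them, and the call held in 116. Leaving out 1 animal gave 0 to 15 calls in all (0 to 14 higher, 0 to 5 lower) and 0 to 3 for the interaction; without tamoxifen animals 7 and 9, an alternative chosen after seeing the data, there were 0 in all, 0 higher and 0 lower. Without variance moderation 0 genes passed in all, 0 higher and 0 lower (smallest adjusted p = 0.203, 775 at an unadjusted p under 0.05). The fit of all 20 arrays in 4 groups called 8 genes higher, of which 2 were among the 9, and 0 lower. With array weights 1 gene, Gng12 (adjusted p = 0.0438), passed the interaction. With the replicate block 4 genes were called higher and 8 lower, 0 of them among the 9, and 2, Ccl8 and Pgr, passed the interaction. The treatment difference in that fit rested on numbers 3, 5 and 6, the only ones with animals without tumors in both treatments. Same-numbered animals correlated at 0.219, -0.042 and 0.586 after removing group means, 2 of 3 best with their own number. So few pairs cannot show whether same-numbered animals share more than a number. Every other scaling, filter, probe-set rule and block kept the total within 1.5 times 9, though the mean of all probe sets kept 6 of the 9 genes among its 8, and none moved the median of all genes by over 0.1. Of 48 list medians 21 kept their sign in all 23 alternatives. With the replicate block the mast cell list turned to 0.08, and the red blood cell list, with 2 genes tested, went from 0.02 to -0.31. The macrophage list turned to -0.03 without placebo animal 5 and the clock list to 0.01 without placebo animal 6. The rest had a main median within 0.1 of 0 or had their sign change given above. Dim genes such as Ptpn5 limit what the signal can show.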
